A study of Mus musculus with 6 samples.

Results

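Ebi3 and the chains that share a cytokine or a receptor with it were examined in induced T (iT) cells of the mouse. The genes were Ebi3, Il12a and Il27, which encode cytokine chains, and Il27ra, Il6st, Il6ra, Il12rb1, Il12rb2 and Il23r, which encode receptor chains. They were taken by gene name, giving 9 of the 23420 genes listed, and they were chosen because of their levels in these same libraries. Their difference between the populations is therefore only described. Where a count past a test threshold is given for them, nothing is read from it.

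Expression was measured by RNA-Seq of polyadenylated RNA in 6 libraries, each made from 1000 sorted spleen cells. The 3 CD4SP libraries held CD4 single-positive iT cells and the 3 CD8SP libraries held CD8 single-positive iT cells. Both populations came from embryonic stem cells with a doxycycline-inducible Runx1-p2a-Hoxa9 cassette in the Rosa26 locus (iR9), which were turned into blood progenitors and transplanted into irradiated 8-week-old B-NDG mice. Doxycycline was given in culture. The study describes transplants without it but fed it to some recipients, and does not state its use for the mice of these libraries. The spleens were taken at week 5. This host is immunodeficient, the donor cells were told from it by the CD45.2 gate, and erythroid, B and myeloid cells were gated out. The cassette and the host were shared by both groups, and no T cells grown without them were among the 6 libraries. The labels name the replicates 1 to 3 in each population and do not give the mouse behind each library, so p-values measure only the spread between these libraries.

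The IL-12 and IL-6 families are cytokines that act through paired receptor chains, JAK kinases and STAT transcription factors. Ebi3 is a secreted, receptor-like chain. It forms IL-27 with the p28 chain encoded by Il27, and IL-35 with the p35 chain encoded by Il12a, a cytokine attributed to regulatory T cells. The p35 chain also forms IL-12 with the product of Il12b, a cytokine that drives interferon gamma production in T cells. On the receiving side Il6st, which encodes gp130, pairs with Il6ra for IL-6 and with Il27ra for IL-27, while Il12rb1 pairs with Il12rb2 for IL-12 and with Il23r for IL-23.

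Values are TPM, a transcript abundance that scales reads by gene length and by the total of a library. Sequencing depth cannot be read from TPM and is unknown here. The libraries listed 9971 to 10649 genes at 1 TPM or more. The 84 ribosomal protein genes took a TPM share of 25.7% ± 2.57 in CD4SP, against 33.5% ± 2.05 in CD8SP (SD, n = 3), and the median difference of all 10476 tested genes was 0.28 on the log2(TPM + 1) scale, in favour of CD4SP. All differences of that scale below are CD4SP minus CD8SP, and their median was 0.14 once the ribosomal protein genes were removed and the libraries rescaled. CD8SP replicates 1 and 2 were the most alike of the libraries, with Pearson r of 0.987 across genes. As a check of the labels, Cd4 was at 331, 281 and 279 TPM in the CD4SP libraries, against 0.104, 0 and 0 TPM in CD8SP, and Cd8a was at 2.93, 0.319 and 2.20 TPM against 1147, 1161 and 1038 TPM.

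Ebi3 was the chain that divided the populations, with levels near 60 TPM in each CD4SP library and none listed in any CD8SP library. CD4SP replicates 1 to 3 held 64.6, 54.7 and 61.7 TPM, and Ebi3 was listed at 0 in all 3 CD8SP libraries. The CD4SP mean was 60.3 ± 5.08 TPM (SD, n = 3), above 76.9% of tested genes in that population. The 3 CD4SP values lay close together, the highest at 1.18 times the lowest, and no other chain with a value above 0 in every CD4SP library varied as little there. A value of 0 in this table can be a failed estimate, so no fold change is given for Ebi3. In such bulk libraries, fewer cells with the transcript and less transcript per cell cannot be told apart.

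The partner chains of Ebi3 were listed at far lower values. Il27, the p28 chain, was listed at 0 in all 6 libraries. Il12a, the p35 chain, was at 0, 0 and 1.001 TPM in CD4SP, against 0.496, 0.555 and 0.825 TPM in CD8SP libraries. It was thus above 0 in every CD8SP library and in 1 CD4SP library, the ranges overlapped, and it was too low to be tested. Only CD4SP replicate 3 held both chains of IL-35 at 1 TPM or more, with 61.7 TPM of Ebi3 for 1.001 TPM of Il12a. Il12b and Il23a, which complete IL-12 and IL-23, were listed at 0 in all 6 libraries, so no library held both chains of IL-27, IL-12 or IL-23.

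Ebi3 lies on chromosome 17, from 55952640 to 55957022 on the plus strand (GRCm38, GENCODE M21), as a protein-coding gene with 5 exons and a transcript of 1154 nt. An antisense gene, Gm16712, overlaps it by 2252 nt on the opposite strand and is not in the table, and since use of strand was not stated, reads of the pair cannot be told apart. Il12a lies on chromosome 3, from 68690644 to 68698547 on the plus strand. Il27 lies on chromosome 7, from 126589010 to 126594941 on the minus strand, and shares 103 nt with Apobr on the other strand. Apart from genes that overlap them, no transcript of another locus matched any of the 9 genes at 95% identity over 200 nt.

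The start regions of Ebi3 and Il12a are printed because they encode the chains of IL-35, and that of Il12rb2 because it held a STAT motif. Each runs from 250 bases before to 50 bases after a RefSeq transcript start (GRCm38.p6), 5′ to 3′ on the strand of the gene, with motif matches in capitals.
Ebi3, chr17:55952373-55952672, plus strand: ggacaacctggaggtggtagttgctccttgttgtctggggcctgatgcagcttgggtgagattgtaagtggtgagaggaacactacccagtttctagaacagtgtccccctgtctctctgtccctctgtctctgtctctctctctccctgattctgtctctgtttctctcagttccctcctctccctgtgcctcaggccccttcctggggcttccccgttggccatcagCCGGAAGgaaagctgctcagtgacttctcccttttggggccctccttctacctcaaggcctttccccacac
Il12a, chr3:68690394-68690693, plus strand: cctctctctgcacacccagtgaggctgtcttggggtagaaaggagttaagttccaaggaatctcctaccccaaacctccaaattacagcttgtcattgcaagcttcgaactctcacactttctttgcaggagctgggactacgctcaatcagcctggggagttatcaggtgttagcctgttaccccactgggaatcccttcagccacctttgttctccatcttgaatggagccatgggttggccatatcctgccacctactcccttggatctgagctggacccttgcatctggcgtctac
Il12rb2, chr6:67376139-67376438, minus strand: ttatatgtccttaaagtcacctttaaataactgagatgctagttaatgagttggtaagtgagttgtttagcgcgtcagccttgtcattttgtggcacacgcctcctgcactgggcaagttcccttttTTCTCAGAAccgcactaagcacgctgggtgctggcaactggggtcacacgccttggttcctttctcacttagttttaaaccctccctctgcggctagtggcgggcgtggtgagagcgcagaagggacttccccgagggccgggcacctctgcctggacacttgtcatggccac

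The capitals mark CCGGAAG, the motif of ETS factors, from base -21 of Ebi3, and TTCNNNGAA, a STAT motif, from base -123 of Il12rb2, where base -1 is the last before the start. Both strands were searched for 6 motifs, none of which overlapped another match in these regions. Of 32851 RefSeq promoters of the same length, 16.8% held TGTGGT (RUNX), 8.86% CCGGAAG, 8.30% TTCNNNGAA, 7.81% TGANTCA (AP-1), 3.65% TGTTTAC (FOX) and 1.63% the NF-kB motif, GGG and TTTCC with any 2 bases between them. The Ebi3 region held 2 CpG dinucleotides, against a median of 7 over all promoters, and its GC content of 56.3% was close to the median of 52.7%. The printed Il12a region held none of the 6 motifs, and a second Il12a start held TGTGGT from base -126. Il23r held the NF-kB motif from base -142, while the regions of Il6st and Il6ra held none of the 6 and were rich in CpG, with 33 and 25. Of the 9 genes, 6 had a promoter entry. A match describes letters in the sequence and is not evidence of binding.

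**Figure D1:**
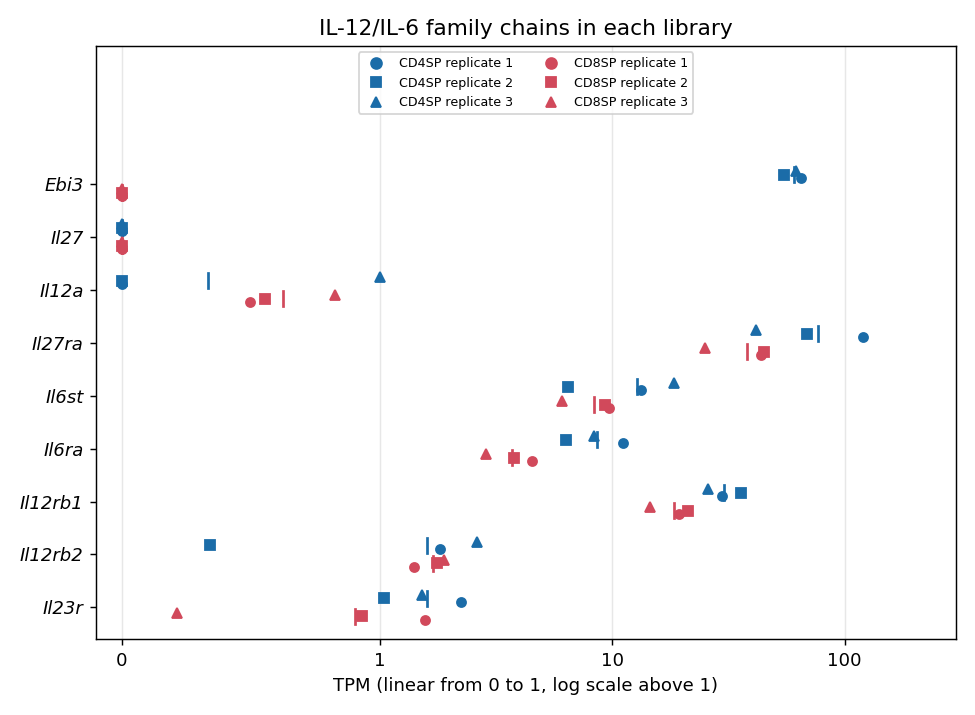
The 9 cytokine and receptor chains in each library. The x axis gives TPM, linear from 0 to 1 and logarithmic above; points are libraries, blue for CD4SP and red for CD8SP, with a shape for each replicate number, and vertical ticks are the means of 3. Ebi3 stands at 54.7 to 64.6 TPM in CD4SP and at 0 in CD8SP, whereas the receptor chains are listed in both.

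All 6 receptor chains were listed above 0 in each library of both populations, and 3 of them, Il27ra, Il6st and Il12rb1, were above 5 TPM throughout. Il27ra, the IL-27 specific chain, was the most abundant of the 9 genes by mean in both populations. It was at 120.4, 68.7 and 41.4 TPM in CD4SP, against 43.7, 44.8 and 25.2 TPM in CD8SP libraries. The ranges overlapped, since CD4SP replicate 3 fell below CD8SP replicates 1 and 2, and the difference was 0.91 (SE 0.372).

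Il6st, the signalling chain shared by the IL-6 family, was at 13.3, 6.42 and 18.4 TPM in CD4SP, against 9.65, 9.33 and 6.07 TPM in CD8SP libraries. Its ranges overlapped, with CD4SP replicate 2 below CD8SP replicates 1 and 2, and the difference was 0.47 (SE 0.356). Il6ra, the IL-6 binding chain, was at 11.1, 6.32 and 8.30 TPM in CD4SP, against 4.53, 3.76 and 2.85 TPM in CD8SP libraries. Every CD4SP library lay above every CD8SP library for Il6ra, and the means were 8.59 ± 2.42 and 3.71 ± 0.842 TPM (SD, n = 3). The difference of 1.01 (SE 0.265) sat at the edge of 2-fold, and it was 0.75 after median-of-ratios rescaling, 0.64 when quantiles were equalised and 0.92 when ribosomal protein genes were taken out.

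Il12rb1, the chain common to the IL-12 and IL-23 receptors, was at 29.5, 35.6 and 25.8 TPM in CD4SP, against 19.4, 21.3 and 14.5 TPM in CD8SP libraries. The populations did not overlap for Il12rb1, and the difference of 0.70 (SE 0.199) was under 2-fold. Il12rb2, the signalling chain of the IL-12 receptor, was low in both, at 1.82, 0.339 and 2.60 TPM against 1.40, 1.76 and 1.89 TPM. Its CD8SP values lay within the CD4SP range, and its difference of -0.16 (SE 0.388) became 0.25 without CD4SP replicate 2 and 0.18 with library weights. Il23r, the IL-23 specific chain, was at 2.23, 1.04 and 1.51 TPM in CD4SP, against 1.56, 0.931 and 0.213 TPM in CD8SP libraries, again with overlap, and differed by 0.49 (SE 0.359).

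Of the 9 genes, 7 passed the filter of 1 TPM in 3 libraries, Ebi3 through its CD4SP libraries alone. Ebi3 and Il6ra were the 2 past an adjusted p of 0.05 and 2-fold, a rule that 9.73% of all tested genes passed in either direction, 7.92% upwards in CD4SP and 1.8% upwards in CD8SP, and Il6ra sat just inside the 2-fold limit where Il27ra and Il12rb1 were outside it. Il6ra no longer passed without CD4SP replicate 1, CD4SP replicate 3 or any one of the CD8SP libraries, and Il27ra passed in its place without CD4SP replicate 3. The CD4SP range lay wholly above the CD8SP range for 3 of the 7, Ebi3, Il6ra and Il12rb1, as it did for 36.6% of tested genes, while 6.61% lay wholly the other way and 43.2% did not overlap in either. Because the choice of genes rested on this contrast, nothing is read from these counts. Relative to the median of all tested genes, the differences were 0.73 for Il6ra, 0.63 for Il27ra, 0.41 for Il12rb1, 0.20 for Il23r, 0.19 for Il6st and -0.45 for Il12rb2.

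By mean TPM the order in CD4SP libraries was Il27ra, Ebi3, Il12rb1, Il6st, Il6ra, Il23r, Il12rb2, Il12a and Il27. Neighbours whose CD4SP ranges overlapped were Il27ra and Ebi3, with Il27ra the higher in 2 of 3 libraries, then Il6st and Il6ra, Il23r and Il12rb2, Il12rb2 and Il12a, and Il12a and Il27. In CD8SP libraries the order was Il27ra, Il12rb1, Il6st, Il6ra, Il12rb2, Il23r and Il12a, with Ebi3 and Il27 at 0. There the neighbours that overlapped were Il12rb2 and Il23r, and Il23r and Il12a, beside the pair at 0. Il27ra stood above 81.8% of tested genes in CD4SP and 71.5% in CD8SP, whereas Il23r stood above 4.6% and 3.5%.

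The libraries of a population did not rank alike for every chain. CD4SP replicate 2 was the lowest CD4SP library for Ebi3, Il6st, Il6ra, Il12rb2 and Il23r but the highest for Il12rb1. CD8SP replicate 3 was the lowest of its population for Il27ra, Il6st, Il6ra, Il12rb1 and Il23r and the highest for Il12rb2 and Il12a. The widest spreads were those of Il12rb2 in CD4SP, where the highest library held 7.67 times the lowest, and of Il23r in CD8SP, at 7.33 times.

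Il12rb2 and Il23r are neighbours on chromosome 6, at 67291318 to 67376188 and 67422932 to 67491855, both on the minus strand, with 46743 bases and 0 annotated protein-coding genes between them. Il12rb2 overlaps Serbp1 on the opposite strand by 6419 nt, of which 721 nt are exonic in both. Serbp1 was at 117.9, 90.2 and 134.9 TPM in CD4SP, against 129.9, 135.5 and 122.8 TPM in CD8SP libraries. Since use of strand was not stated, the low Il12rb2 values are uncertain. Il27ra (chromosome 8, 84030294 to 84042589) and Il12rb1 (chromosome 8, 70808449 to 70821424) lie on opposite strands, Il6st is on chromosome 13 from 112464070 to 112510086, and Il6ra is on chromosome 3 from 89864059 to 89913196, where an antisense gene shares 281 nt with it.

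Whether both chains of a receptor were listed in the same library was asked next. Il6ra and Il6st, the chains for IL-6, were both at 1 TPM or more in all 6 libraries, as were Il27ra and Il6st, the chains for IL-27. For IL-12, Il12rb1 and Il12rb2 were both at that level in 2 of 3 CD4SP and 3 of 3 CD8SP libraries. For IL-23, Il12rb1 and Il23r were both there in 3 of 3 CD4SP libraries and in 1 CD8SP library. At a minimum of 5 TPM, the IL-27 pair held in all 6 libraries, the IL-6 pair in the 3 CD4SP libraries, and neither the IL-12 nor the IL-23 pair in any.

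Within a library the chains of a receptor were listed at unequal levels per length. Il27ra exceeded Il6st in every library, by 2.25 to 10.69 times in CD4SP and by 4.14 to 4.80 times in CD8SP. Il6ra was below Il6st in every library, at ratios of 0.84, 0.99 and 0.45 in CD4SP and 0.47, 0.40 and 0.47 in CD8SP. Il12rb1 exceeded Il12rb2 by 7.69 times in CD8SP replicate 3 and by 104.93 times in CD4SP replicate 2, the lowest and highest of the 6 libraries, and it exceeded Il23r by 12.41 to 68.21 times.

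**Figure D2:**
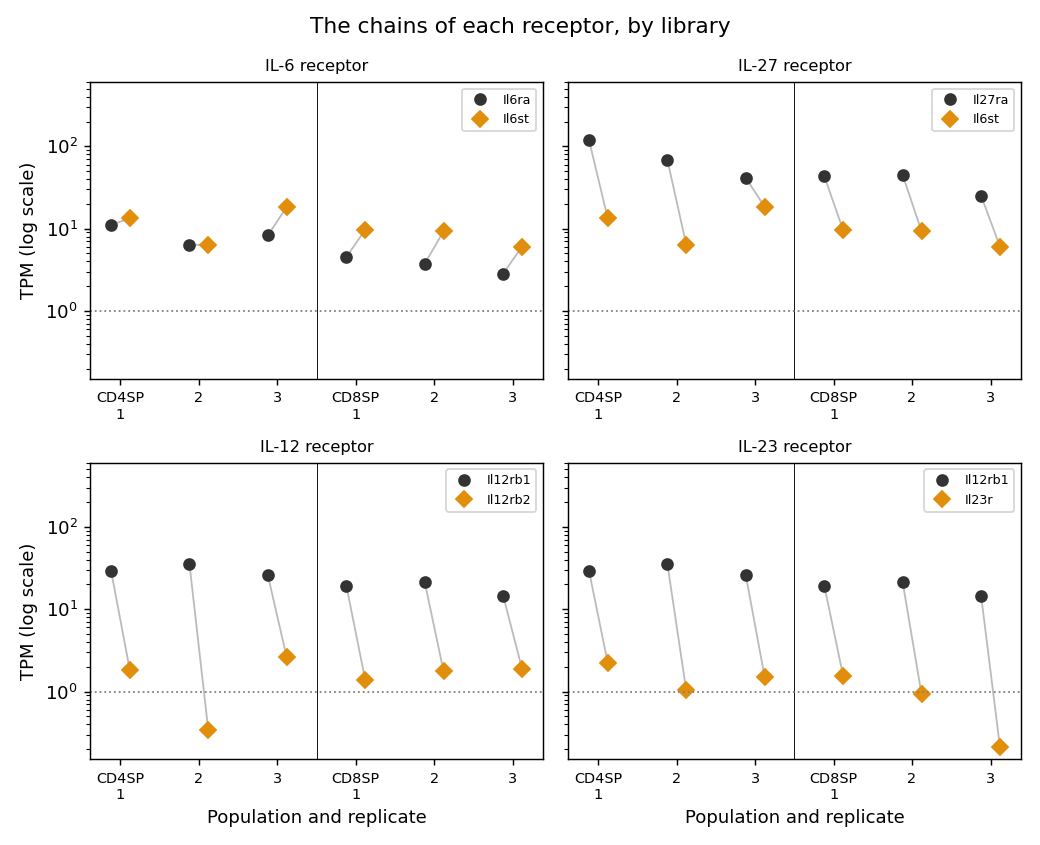
The chains of the IL-6, IL-27, IL-12 and IL-23 receptors in each library. The y axis gives TPM on a log scale and the x axis the population and replicate; circles and diamonds are the chains named in each panel, joined within a library, and the dotted line is 1 TPM. Il27ra lies above Il6st and Il12rb1 above its partners in all 6 libraries, and Il12rb2 falls to 0.339 TPM in CD4SP replicate 2.

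The other genes of these pathways were followed in a list of 50, which like the 9 genes was drawn up with earlier results of these data known. Of the 50, 10 were listed at 0 in all 6 libraries and 37 were tested with limma. In CD4SP, 17 were higher past an adjusted p of 0.05 and 2-fold, a direction in which 7.92% of all tested genes passed. The 17 became 9 after median-of-ratios rescaling and 7 after quantile normalization. Over all 10476 tested genes, 830 were higher in CD4SP by the rule, and 489 and 444 after these 2 steps. In CD8SP, 0 were higher by this rule. By adjusted p under 0.05 alone, 22 were higher in CD4SP and 1, Ptpn6, in CD8SP, against 1845 and 338 of 10476 tested genes. Lif, Il17a and Il17f, 3 of the 17, passed the filter on low values through their CD4SP libraries alone and so had to differ. Their values are given without a test, and they are part of the counts out of 37. Of the other 34 tested genes, 14 were higher in CD4SP by the rule, with a median difference of 0.62, against 0.28 over all tested genes.

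Among the further ligands of the IL-6 family, Osm was higher in CD4SP. Osm, which encodes oncostatin M, was at 26.2, 46.2 and 35.7 TPM against 11.2, 12.1 and 7.51 TPM in CD8SP, a difference of 1.71 (SE 0.254, limma adjusted p 0.00294). Lif, the leukemia inhibitory factor, was at 1.78, 3.10 and 3.09 TPM against 0, 0 and 0.370 TPM. Clcf1 differed by -0.50 (limma adjusted p 0.175) and Cntf by -0.40 (limma adjusted p 0.720), Il11 was at 0.395 TPM in CD4SP replicate 1 and at 0 elsewhere, and Il6, Ctf1 and Il31 were listed at 0 in every library. The receptor chains Lifr, Osmr and Cntfr, which act with gp130 for several of these ligands, and Il31ra, the IL-31 binding chain, were also listed at 0 throughout. Il11ra1, the IL-11 binding chain, was at 4.84 to 7.01 TPM over the 6 libraries (difference 0.14, limma adjusted p 0.685).

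Kinases and STAT factors carry these signals to the nucleus. Stat3, the main transducer of gp130, differed by 0.60 (limma adjusted p 0.0294), Jak2 by 0.73 (limma adjusted p 0.0297) and Tyk2 by 0.62 (limma adjusted p 0.0311), each under 2-fold. Jak1 differed by -0.32 (limma adjusted p 0.144) and Stat4, the transducer of IL-12, by -0.34 (limma adjusted p 0.143).

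Among genes that restrain or trim the pathway, Socs2, Adam17, Ptpn11 and Socs1 were higher in CD4SP, 4 of 10 against 7.92% of all tested genes. Adam17, Ptpn11 and Socs1 did not pass under any of the 3 rescalings of the libraries, and Socs1 passed in 5 of 17 alternatives. Socs2, a suppressor of cytokine signalling, was at 66.2, 76.5 and 63.9 TPM against 9.31, 6.56 and 8.78 TPM (difference 2.93, SE 0.178, limma adjusted p 2.91e-05), with near-identical copies Gm8000 and Gm9847 that could share its reads. Adam17, a protease that sheds the IL-6 receptor, was at 38.7, 38.5 and 42.0 TPM against 19.1, 18.3 and 16.8 TPM (difference 1.09, SE 0.144, limma adjusted p 0.00169). Socs3, the feedback inhibitor bound by gp130, differed by 0.48 (limma adjusted p 0.0873). The phosphatase gene Ptpn6 differed by -0.67 (limma adjusted p 0.0162), under 2-fold.

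Of 18 target genes, 16 were tested, and besides Il17a and Il17f, which entered through CD4SP alone, 8 of 14 were higher in CD4SP by the rule, against 7.92% of all tested genes. Maf, a factor for Il10 transcription, was at 42.2, 53.6 and 69.7 TPM against 2.76, 3.40 and 1.36 TPM (difference 4.02, SE 0.284, limma adjusted p 7.2e-05). Il10, an inhibitory cytokine that IL-27 induces in T cells, was at 54.1, 24.7 and 53.6 TPM against 1.74, 2.45 and 11.2 TPM (difference 3.13, SE 0.549, limma adjusted p 0.00608). Il17a, a cytokine of the T helper 17 programme that IL-23 sustains, was at 8.66, 4.66 and 11.3 TPM against 0, 0.283 and 0 TPM. Its relative Il17f was at 12.5, 1.26 and 1.61 TPM against 0 in all 3 CD8SP libraries. Prdm1 (1.59), Nfil3 (1.32), Pim1 (1.26), Bcl3 (1.10) and Furin (1.05) also passed the rule. The IL-12 targets Ifng and Tbx21 differed by -0.27 (limma adjusted p 0.144) and 0.02 (limma adjusted p 0.956).

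Of the 14 besides Lif, Il17a and Il17f, only Il10, Maf, Osm, Prdm1 and Socs2 passed under each alternative run, including the 3 rescalings of the libraries. None of the 14 changed direction under any of them. With 1 library left out, 16 of the 17 passed without CD4SP replicate 1, and 16 without CD4SP replicate 2, where Socs1 was lost. Without CD8SP replicate 1, 15 passed, with Socs1 among those lost. Without CD8SP replicate 2, 14 passed, with Socs1 and Furin among those lost. Of the 17, 11 passed without CD4SP replicate 3, where Socs1, Ptpn11, Furin and Nfil3 were among those lost, and 11 without CD8SP replicate 3, where Socs1, Ptpn11, Furin and Bcl3 were among those lost. Adam17, Maf and Pim1 overlap other genes or antisense genes with which they could share reads. Ptpn11, Furin and Bcl3 also overlap other genes by position.

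**Figure D3:**
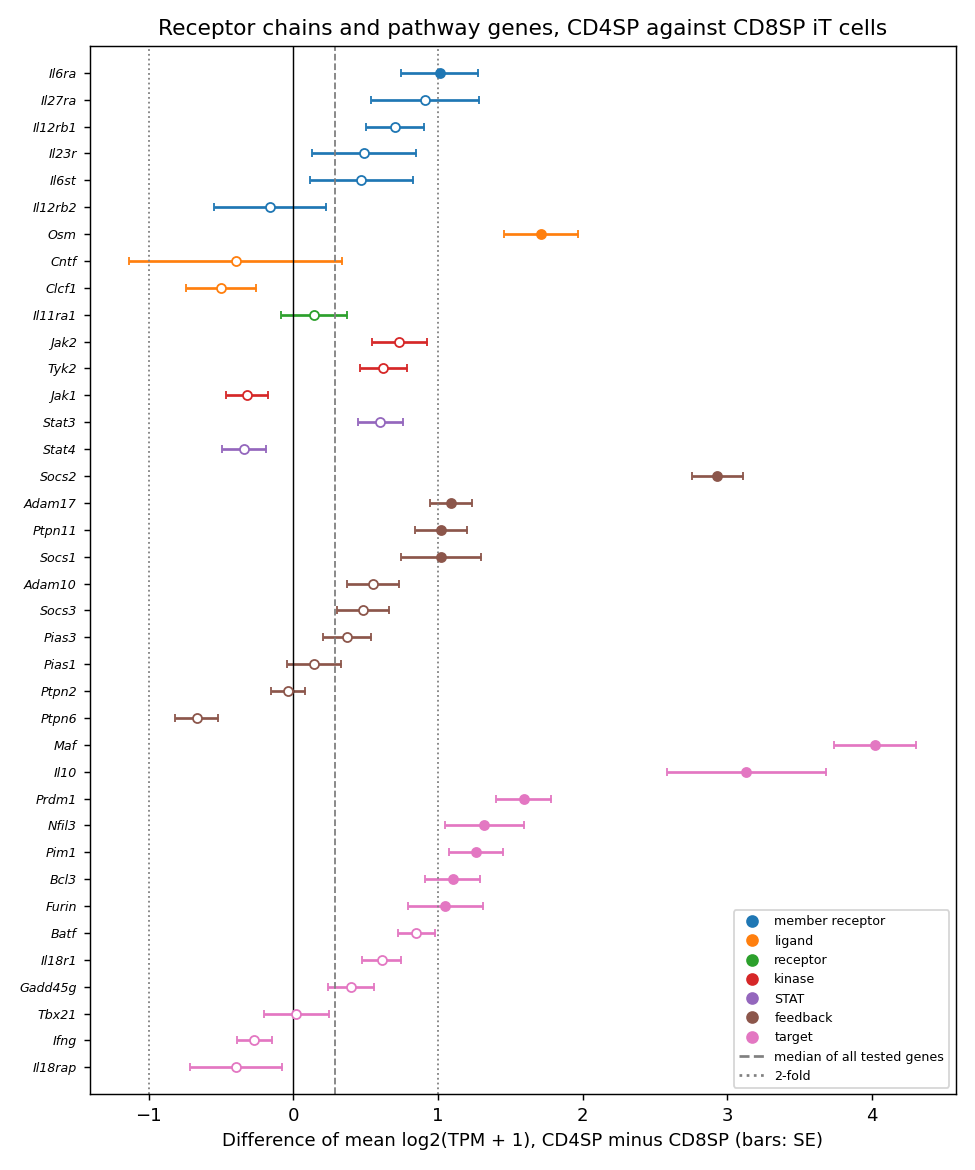
Differences of mean log2(TPM + 1), CD4SP minus CD8SP, for 6 receptor chains and tested pathway genes, grouped by role. Bars are standard errors of the limma fit, filled points passed an adjusted p of 0.05 and 2-fold, dotted lines mark 2-fold and the dashed line the median of all tested genes; Ebi3 and Il17f are left out because their CD8SP libraries were listed at 0, Lif and Il17a because they passed the filter through CD4SP alone, and some pathway genes are not shown. Maf and Il10 lie farthest to the right.

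As a cytokine chain attributed to regulatory T cells, Ebi3 was set beside 14 genes that mark these cells. Of the 14, 12 were higher in CD4SP past the same rule, against 7.92% of all tested genes. Gpr83, 1 of the 12, passed the filter through CD4SP alone, and 11 of the other 13 passed the rule. The summed level of the 14 was 4491 to 4798 TPM in CD4SP and 639 to 740 TPM in CD8SP libraries. Foxp3, the defining factor of regulatory T cells, varied more than Ebi3 among the CD4SP libraries. It was at 141.6, 6.56 and 167 TPM in CD4SP, against 7.48, 7.48 and 10.05 TPM in CD8SP libraries, so that CD4SP replicate 2 fell below all CD8SP libraries, while its Ebi3 level of 54.7 TPM stayed near the other CD4SP libraries. Foxp3 was alone among the 14 in this. Each of the other markers lay above every CD8SP library in CD4SP replicate 2, from Ikzf4 at 7.02 TPM to Tnfrsf4 at 1157 TPM. Foxp3 (limma adjusted p 0.101) and Tnfrsf9 (limma adjusted p 0.0714) were the 2 that missed the rule. The part of a regulatory T cell share in the Ebi3 level was not tested.

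**Figure D4:**
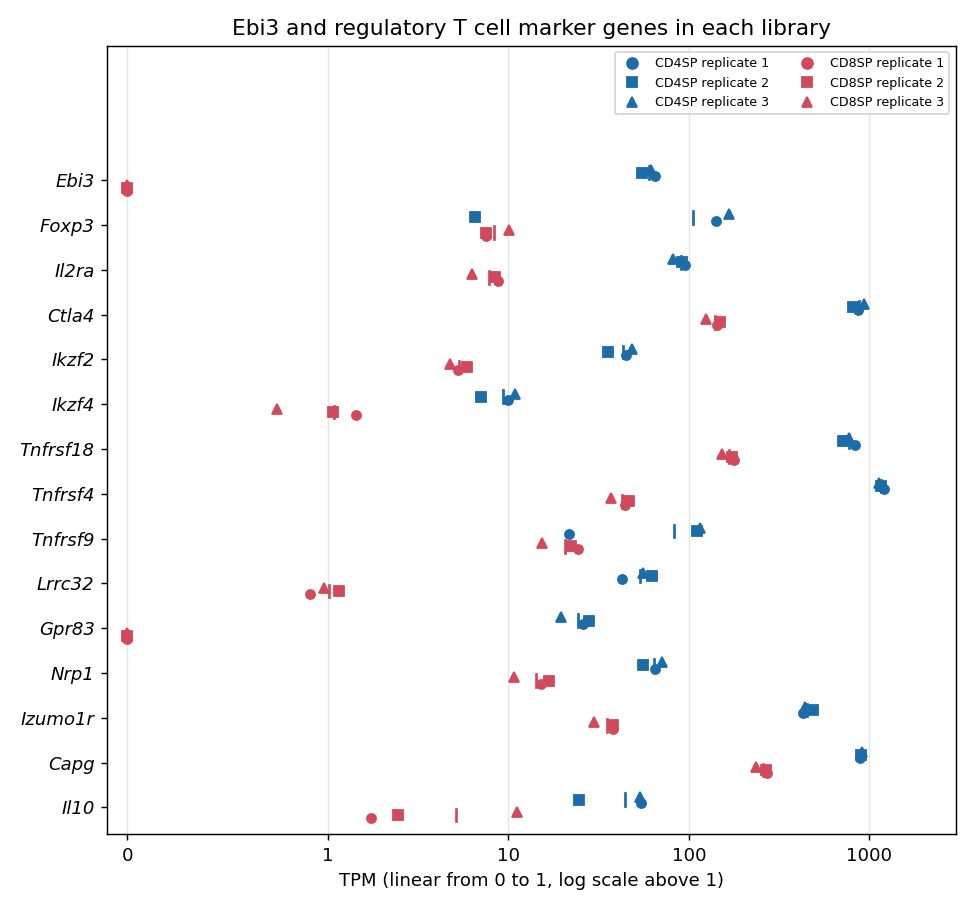
Ebi3 and 14 regulatory T cell marker genes in each library. The x axis gives TPM, linear from 0 to 1 and logarithmic above; points are libraries, blue for CD4SP and red for CD8SP, with a shape for each replicate number, and vertical ticks are means of 3. Foxp3 falls to 6.56 TPM in CD4SP replicate 2, where Ebi3 is at 54.7 TPM and each of the other markers lies above every CD8SP library.

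Ebi3 and Il27 are also made by myeloid, dendritic and B cells, so markers of these cells were examined. Of 15 myeloid and dendritic genes, Fcgr1, S100a8 and S100a9 had no value above 0 in any library, and the sum of the 15 was 109 to 150 TPM in CD4SP and 65.9 to 76.0 TPM in CD8SP. Of the 7 tested, Lyz2, H2-Aa, H2-Ab1 and Cd74 were higher in CD4SP, and Cd68 and Itgax in CD8SP, Itgax having passed the filter through CD8SP alone, against 7.92% and 1.8% of all tested genes in these directions. Of 7 B cell genes, Ms4a1 and Pax5 were listed at 0 in all libraries, and the sum was 17.9 to 24.3 TPM in CD4SP and 27.4 to 29.3 TPM in CD8SP. Of the 4 B cell genes tested, Cd22 passed the rule, higher in CD8SP, at 1.58 ± 0.114 TPM in CD4SP and 5.46 ± 2.24 TPM in CD8SP (SD, n = 3, difference -1.27, limma adjusted p 0.0180), against 1.8% of all tested genes. Csf1r and Itgam, further defining myeloid genes, did not exceed 0.894 TPM in any library. The part of such cells in the Ebi3 level was not tested.

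The tested genes whose log2(TPM + 1) values over the 6 libraries lay nearest to those of Ebi3, by Euclidean distance, were Cd40lg (0.968), Gm5424 (1.542), Cd81 (1.596), Lrrc32 (1.866) and Ccr8 (1.965). Cd40lg, the helper ligand for B cells, was at 40.1, 53.4 and 43.1 TPM in CD4SP, against 0, 0.389 and 0 TPM in CD8SP libraries. Lrrc32, the surface receptor for latent TGF-beta on regulatory T cells, was at 42.6, 62.5 and 56.0 TPM against 0.912, 1.16 and 0.983 TPM. Ccr8, a chemokine receptor, was at 43.7, 35.7 and 43.4 TPM against 0.841, 1.18 and 0.933 TPM. Gm5424 is a processed pseudogene with 99.5% identity to Ass1, so its values are uncertain. With 6 libraries that fall into 2 populations the ranking separates little, and 136 tested genes had a Pearson r above 0.99 with Ebi3. Of the 5 nearest genes, 2 were also nearest with a pseudocount of 0.1, and 1 by Pearson r.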

How the data were processed

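Polyadenylated RNA of 6 libraries of 1000 sorted cells was amplified with a whole-transcriptome kit and made into libraries with a transposase kit. Per the submitters' processing notes and the study's methods, reads were aligned with HISAT2 to mm10 and quantified with StringTie, and the authors deposited TPM, one column per library. TPM hold no depth, so no counting interval or detection limit is given, and strand and duplicate handling were not given in the sources used here.

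Genes at 1 TPM or more in at least 3 libraries (10476 of 23420) were fitted as log2(TPM + 1) with limma 3.58.1 in R 4.3.3 (lmFit, eBayes with trend), population as the only term and Benjamini-Hochberg adjustment over all tested genes. This scale understates changes of low genes. A call needed an adjusted p under 0.05 and over 2-fold. The fit was tested on simulated data. Positions are from GENCODE M21 (GRCm38), copies from blastn 2.17.0, and promoters from RefSeq.

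The genes and lists were chosen with earlier results of these data known. Named genes were the 9 chains, the pathway genes that passed the call rule with the ligand, receptor, kinase and STAT genes, the 5 genes nearest to Ebi3, and marker genes set beside a chain. Ptpn6, Socs3, Ifng and Tbx21 were named after their values were seen. Some genes of the lists are not reported here. The older symbol Folr4 was read as Izumo1r and Emr1 as Adgre1. Alternatives were leaving out the filter, raising it to 5 TPM, lowering the pseudocount to 0.1, quantile normalization, removal of ribosomal protein genes, median-of-ratios rescaling, no trend, library weights, a replicate block, no fold limit, averaging CD8SP replicates 1 and 2, and leaving out each library.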

Additional observations from a re-analysis of the deposited data

How the results depend on the processing

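The count of chains past the call rule, 2, fell to 1 without a filter, with library weights, with ribosomal protein genes removed, under quantile normalization, under median-of-ratios rescaling and with CD8SP replicates 1 and 2 averaged. It was 1 to 2 when each library was left out in turn, and 1 without CD4SP replicate 1 or without any one of the CD8SP libraries. The count holds Ebi3, which entered through its CD4SP libraries alone, so it bears on Il6ra only, and without CD4SP replicate 3 it held Il27ra in place of Il6ra. The log2 differences ranged over 15 settings from 0.64 to 1.19 for Il6ra, 0.53 to 1.29 for Il27ra, 0.38 to 0.80 for Il12rb1, 0.10 to 0.86 for Il6st, 0.13 to 1.0 for Il23r and -0.46 to 0.25 for Il12rb2. The Ebi3 mean in CD4SP moved from 60.3 to 54.1 TPM after median-of-ratios rescaling and to 81.1 TPM with ribosomal protein genes removed, and was 58.2 to 63.1 TPM with 1 library left out. The pathway count of 17 higher in CD4SP fell to 9 after median-of-ratios rescaling and 7 after quantile normalization, rose to 22 on adjusted p alone, where 3 chains passed, and was 11 to 16 with 1 library left out, the lowest without CD4SP replicate 3 or CD8SP replicate 3. The 0 higher in CD8SP became 1, Ptpn6, on adjusted p alone and was 0 with each library left out. The 6 receptor and population combinations with both chains in all 3 libraries fell to 3 at a minimum of 5 TPM, and of the 5 genes nearest to Ebi3, 2 remained with a pseudocount of 0.1 and 1 by Pearson r. The share of all calls that were higher in CD4SP was 81.5%, against 61.9% after median-of-ratios rescaling and 57.1% after quantile normalization. With the replicate number as a block, 16 pathway genes and 2 chains passed, Furin being lost, and 997 genes passed overall against 1019. Deviations of same-numbered libraries had correlations of -0.0168 to 0.0887 across genes, against -0.0866 to 0.0671 for libraries of different numbers. Deviations from a mean of 3 libraries are tied to one another, so these values cannot decide the pairing. The numbers were not used to pair the libraries, and whether same-numbered libraries share a mouse is not known. Depth is unknown, so whether Il27, or Ebi3 in CD8SP cells, lay below detection cannot be told. The causes of these shifts were not tested.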

Other observations

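Genes of naive T cells were set against the rule that the pathway genes were held to. Of 7 such genes, 0 passed an adjusted p of 0.05 and 2-fold in limma, against 9.73% of all tested genes in either direction. By adjusted p under 0.05 alone, 2 were higher in CD4SP and 1 in CD8SP, against 1845 and 338 of 10476 tested genes. S1pr1, the receptor that lets T cells leave lymphoid tissue, was at 136.2 ± 18.3 TPM in CD4SP and 72.0 ± 2.57 TPM in CD8SP (SD, n = 3, limma adjusted p 0.00283), under 2-fold. Il21, a cytokine of helper T cells that STAT3 signals induce, was too low to be tested, at 2.29, 0.918 and 3.47 TPM in CD4SP and listed at 0 in CD8SP libraries.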
